A study of Mus musculus with 24 samples.

Results

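Small RNA reads on piRNA clusters were compared between pachytene spermatocytes of mice homozygous for a Ddx4 knock-in allele and of wild-type mice, with 2 libraries of each genotype. The members are the 214 clusters listed in the count tables of these 4 libraries, and the quantity compared is the share of all cluster reads that falls on each cluster. The 4 libraries belong to a set of 12 small RNA libraries, 2 for each of wild type, Ddx4 heterozygous knock-in and Ddx4 homozygous knock-in in pachytene spermatocytes and in round spermatids, within a series of 24 samples. Each small RNA library was made from 200 ng of total RNA of a testis fraction enriched for the named cell type. The labels do not say what was inserted into Ddx4, nor give the strain, the age or the number of mice behind a library. Since nothing ties the libraries of a group to separate animals, every p-value measures the spread between these libraries, which may be technical. The count tables hold clusters and no marker genes, so the purity of the fractions could not be read from them, and fewer cells of a type and less small RNA per cell cannot be told apart.

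Piwi-interacting RNAs (piRNAs) are small RNAs of the animal germ line that load into PIWI proteins and guide the silencing or cleavage of matching transcripts. They are cut from long transcripts of defined loci, the piRNA clusters. In the mouse testis, prepachytene clusters, mostly in genes, are active before and early in meiosis. Pachytene clusters, mostly intergenic, are switched on at the pachytene stage by the transcription factor A-MYB, and many of them are transcribed in opposite directions from a shared promoter. Hybrid clusters are active in both periods. DDX4, the mouse VASA protein, is an RNA helicase that concentrates in germ granules, the cytoplasmic bodies in which piRNA precursors are processed.

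The promoters of 5 clusters are printed first, because A-MYB sites are the known switch of pachytene clusters. Of these loci 4 recur in the results, and 17-qC-935.1 is shown for its motif. Each is the RefSeq promoter (GRCm38.p6, 250 bases before to 50 bases after the start site, 5′ to 3′ on the strand of transcription) of a long non-coding RNA whose start site lies at most 34 bases from an end of a cluster. The RNAs mark, in this order, the clusters 10-qA3-2592.1, 4-qB3-3994.1, 17-qC-935.1, 17-qA3.3-26735.1 and 7-qD2-24830.1. Capitals mark the MYB core motif GGCAGTT, which was searched for on both strands (reverse complement AACTGCC).
4930444F02Rik (mm10 chr10:18831881-18832180, minus strand): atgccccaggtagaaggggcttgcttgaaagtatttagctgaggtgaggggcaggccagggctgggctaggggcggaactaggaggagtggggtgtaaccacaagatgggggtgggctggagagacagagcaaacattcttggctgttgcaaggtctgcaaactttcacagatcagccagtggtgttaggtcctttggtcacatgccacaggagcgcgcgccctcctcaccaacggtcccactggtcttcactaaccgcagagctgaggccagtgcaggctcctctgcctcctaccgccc
1700042G15Rik (mm10 chr4:57364243-57364542, minus strand): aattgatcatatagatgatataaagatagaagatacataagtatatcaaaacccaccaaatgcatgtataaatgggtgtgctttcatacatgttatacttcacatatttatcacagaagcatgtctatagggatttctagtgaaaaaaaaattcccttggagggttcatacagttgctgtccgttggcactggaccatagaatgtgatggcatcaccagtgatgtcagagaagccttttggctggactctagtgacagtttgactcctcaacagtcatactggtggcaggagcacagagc
1700008K24Rik (mm10 chr17:49113484-49113783, minus strand): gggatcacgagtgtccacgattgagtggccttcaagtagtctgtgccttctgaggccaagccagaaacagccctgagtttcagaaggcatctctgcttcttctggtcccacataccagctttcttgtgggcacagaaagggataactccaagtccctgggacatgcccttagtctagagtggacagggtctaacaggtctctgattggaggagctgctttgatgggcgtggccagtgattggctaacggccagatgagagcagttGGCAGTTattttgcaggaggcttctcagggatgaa
Gm10505 (mm10 chr17:27324946-27325245, plus strand): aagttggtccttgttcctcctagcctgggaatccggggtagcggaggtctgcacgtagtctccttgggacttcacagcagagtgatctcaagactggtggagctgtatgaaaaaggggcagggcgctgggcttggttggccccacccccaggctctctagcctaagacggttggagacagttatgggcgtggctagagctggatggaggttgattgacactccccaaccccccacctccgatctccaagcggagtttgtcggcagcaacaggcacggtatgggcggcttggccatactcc
Gm10619 (mm10 chr7:73816454-73816753, minus strand): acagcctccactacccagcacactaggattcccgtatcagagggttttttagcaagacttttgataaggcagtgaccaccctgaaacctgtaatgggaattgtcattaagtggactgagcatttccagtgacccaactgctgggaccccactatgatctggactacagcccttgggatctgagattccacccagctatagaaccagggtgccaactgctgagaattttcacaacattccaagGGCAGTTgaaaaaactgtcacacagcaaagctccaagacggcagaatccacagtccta

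The motif was found in the promoters of 1700008K24Rik and Gm10619, and the other 3 windows do not hold these letters. Of 111 clusters with a RefSeq start site within 500 bases of an end, the motif was held by 6 of 35 pachytene clusters (17.1%), 5 of 18 hybrid clusters (27.8%) and 2 of 58 prepachytene clusters (3.45%). Of all 32851 promoters of the table, 4.12% hold it. This is a share of single promoters, while a cluster counts if any of its start sites holds the motif. Among the pachytene clusters with such a promoter, 3 of 19 that were called higher in homozygotes, 1 of 7 called lower and 2 of 9 not called held the motif. A match is a run of letters and no evidence of binding.

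Cluster reads numbered 26.9 and 27.3 M in wild-type spermatocyte libraries 1 and 2, and 25.9 and 24.9 M in homozygous libraries 1 and 2. Every cluster was counted in all 4, with at least 15 reads. The 22 clusters of most reads held 50% of the reads in each wild-type library, against 25 and 24 clusters in the homozygous libraries. The heterozygous spermatocyte and the spermatid libraries had 9.23 to 24.2 M cluster reads, the lowest being the homozygous spermatid libraries, which listed 210 of the 214 clusters each.

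The genotype labels did not order the 12 libraries. The distance between libraries was taken as the median absolute log2 difference of cluster shares. It was 0.038 between the wild-type spermatocyte libraries and 0.069 between the homozygous ones, and 0.246 to 0.310 across these groups, so the compared groups differ by more than their replicates do. Heterozygous spermatocytes, however, did not lie between them: they were 0.4997 to 0.544 from wild type and 0.735 to 0.753 from homozygotes. By the range of distances, each spermatid group lay nearest to a spermatocyte group of another genotype label, though 1 library of the heterozygous group did not. Wild-type spermatids were 0.164 to 0.240 from heterozygous spermatocytes and 0.584 to 0.658 from wild-type spermatocytes. Heterozygous spermatids were 0.253 to 0.358 from homozygous spermatocytes and 0.318 to 0.476 from heterozygous spermatocytes. Of these, heterozygous spermatid library 2 was 0.318 and 0.349 from the heterozygous and 0.357 and 0.358 from the homozygous spermatocyte libraries. Homozygous spermatids were 0.217 to 0.283 from wild-type spermatocytes and 0.340 to 0.469 from homozygous spermatocytes. These tables hold no gene that could check a genotype label. The labels were kept as given, genotypes below are those of the labels, and whether any of them is exchanged was not tested.

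**Figure D1:**
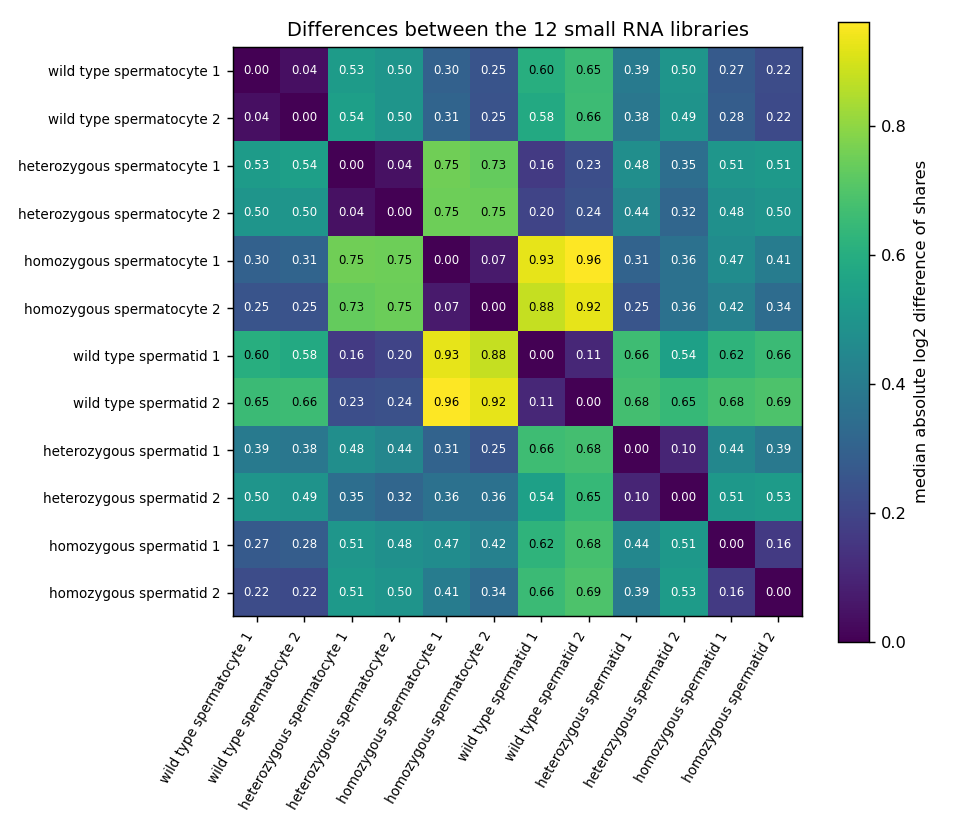
Distance between each pair of the 12 small RNA libraries, as the median absolute log2 difference of cluster shares (colour and printed value; dark is close), with rows and columns in the order of the labels. Replicates are closest to each other, and 5 of the 6 spermatid libraries sit closest to spermatocyte libraries of a different genotype, the exception being heterozygous spermatid library 2.

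In homozygous spermatocytes many clusters gave a changed share of the piRNA reads, with the pachytene clusters shifting in both directions. Of the 214 clusters, 106 passed edgeR's quasi-likelihood test at an adjusted p under 0.05 (49.5% of those tested). Of these, 73 had a higher share in homozygotes (34.1%) and 33 a lower share (15.4%), and 120 had an unadjusted p under 0.05. In all 106 the homozygous libraries lay on one side of both wild-type libraries. Libraries also did not overlap in 180 of all 214 clusters (84.1%), 126 with the homozygous libraries above (58.9%) and 54 with them below (25.2%). The 73 higher clusters together took 32.7% and 33.0% of the reads in the wild-type libraries and 43.1% and 44.0% in the homozygous ones. The 33 lower clusters took 36.2% and 36.3% in wild type and 24.2% and 24.7% in homozygotes. These sums follow from the calls and only describe their size. Most changes were below 2-fold, which 13 clusters exceeded upwards and 7 downwards. Lower clusters were the more abundant ones, with a median wild-type share of 0.843% against 0.222% for the higher and 0.143% for those not called. Among the 30 clusters of most wild-type reads, 13 were called lower and 9 higher.

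The split between directions depended on the scaling. A share must fall somewhere when it rises elsewhere, and the median cluster had a log2 change of 0.17 as a share, 0.30 with TMM factors and -0.03 with relative log expression (RLE) factors. With TMM, 146 clusters were called (68.2%), 118 higher (55.1%) and 28 lower (13.1%). With RLE, 96 were called (44.9%), 35 higher (16.4%) and 61 lower (28.5%). Under all 3 scalings 35 clusters were called higher (16.4%) and 28 lower (13.1%). The set called under all 3 was defined after the data were seen. No cluster called as a share was called in the opposite direction with TMM or RLE. Calls with TMM and RLE could oppose each other, as in 2-qE1-35981.1, which was not called as a share. Unless a scaling is named, log2 changes below are changes of the share.

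**Figure D2:**
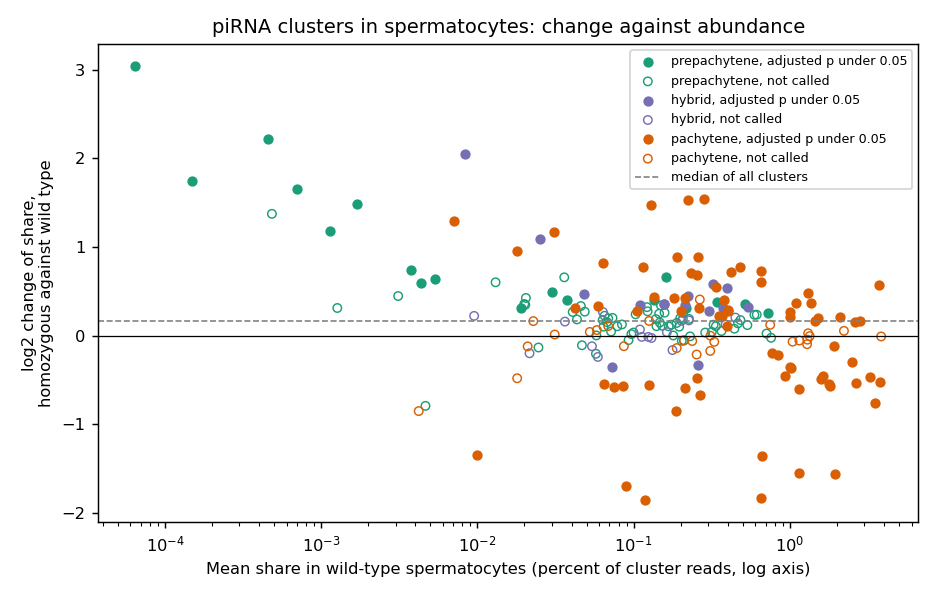
Log2 change of share, homozygous against wild-type spermatocytes, of each of the 214 clusters against its mean share in wild type (percent of cluster reads, log axis). Filled points passed the test (adjusted p under 0.05), colours give the class and the dashed line is the median of all clusters at 0.17. The 5 highest points belong to clusters with wild-type shares under 0.01%, and the 7 points below -1 are all pachytene.

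By class, pachytene clusters took a smaller share of the reads in both homozygous libraries, and prepachytene and hybrid clusters a larger one. The 84 prepachytene clusters together took 14.2% and 14.0% of the reads in wild-type libraries 1 and 2, and 16.7% and 15.03% in homozygous libraries 1 and 2. The 30 hybrid clusters took 5.37% in each wild-type library and 6.49% and 6.22% in the homozygous ones. The 100 pachytene clusters took 80.4% and 80.6% in wild type and 76.8% and 78.8% in homozygotes. In each class the homozygous libraries lay outside the wild-type range, by 1.74 percentage points more for prepachytene, 0.983 more for hybrid and 2.72 less for pachytene clusters on average. With 2 libraries against 2, an exact two-sided permutation test cannot go below p = 0.333, the value reached by all 3 classes. Homozygous library 1 carried more of the shift: without it the prepachytene difference was 0.916 percentage points and the pachytene difference -1.76.

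Single clusters of the classes behaved differently. As shares, 19 prepachytene clusters were called higher and 0 lower, against 73 and 33 of all clusters, while with RLE 7 were higher and 6 lower. Of the hybrid clusters 12 were higher and 2 lower as shares, and 6 and 8 with RLE. Of the pachytene clusters 42 were higher and 31 lower as shares, so that 73 of 100 passed the test, and 22 and 47 with RLE. Their median log2 changes were 0.20, 0.19 and 0.03, beside 0.17 over all clusters. Under RLE the medians were -0.0028, -0.013 and -0.17, so the direction of a class median depends on the scaling. Their order was kept, but a scaling moves all clusters by nearly the same amount and could hardly change it. Without homozygous library 1 the medians as shares were 0.120, 0.123 and 0.024, with hybrid above prepachytene and pachytene lowest. Under all 3 scalings 7 prepachytene clusters were higher and 0 lower, 6 hybrid clusters were higher and 1 lower, and 22 pachytene clusters were higher and 27 lower. The 42 higher pachytene clusters went from 27.6% and 27.9% of the reads in wild type to 36.3% and 37.5% in homozygotes, while the 31 lower ones went from 35.9% and 36.0% to 23.95% and 24.4%. Again these sums follow from the calls.

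**Figure D3:**
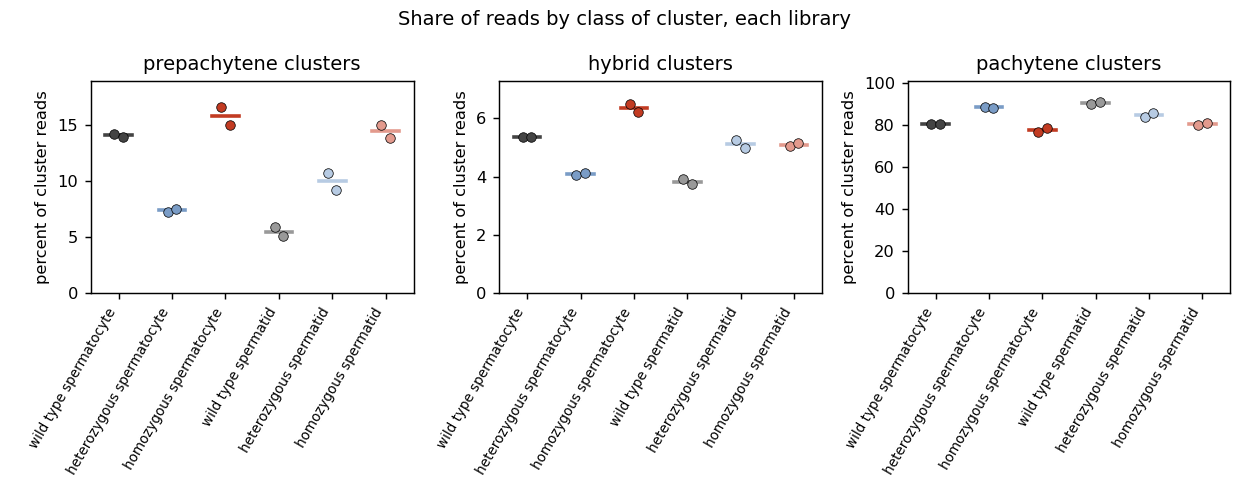
Percent of cluster reads in the 84 prepachytene, 30 hybrid and 100 pachytene clusters in each of the 12 small RNA libraries (points) with the mean of each group of 2 (bars). Homozygous spermatocytes lie above wild type in the prepachytene and hybrid panels and below it in the pachytene panel, while heterozygous spermatocytes lie on the opposite side of wild type.

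The 10 clusters of most reads are all intergenic pachytene loci, and they went both ways. The top cluster, 18-qE1-36451.1 on chromosome 18, took 3.64% and 3.76% of the reads in wild-type libraries 1 and 2 and 5.42% and 5.57% in homozygous libraries 1 and 2. The homozygous libraries were both higher, and the share rose by 0.57 in log2 units (SE 0.027, adjusted p = 1.21e-07). Cluster 5-qF-14224.1 (mm10 chr5:113340137-113365732) went from 3.53% and 3.47% to 2.07% and 2.07%. It fell by 0.76 (SE 0.040, adjusted p = 1.88e-07), without overlap. Cluster 17-qA3.3-26735.1 (chr17:27325196-27367483), which overlaps the lncRNA Gm10505, went from 3.87% and 3.68% to 2.59% and 2.65% and fell by 0.53 (SE 0.039, adjusted p = 1.76e-06). Cluster 9-qC-31469.1 (chr9:67691251-67733786) went from 3.24% and 3.26% to 2.34% and 2.37% and fell by 0.47 (SE 0.022, adjusted p = 1.21e-07). The wild-type libraries were higher in all of these 3 loci. Cluster 9-qA5.3-24188.1 fell as well, by 0.29 (adjusted p = 3.57e-06).

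Others among the 10 changed little. Cluster 2-qE1-35981.1 (chr2:92541141-92599077) held 3.82% and 3.85% in wild type and 3.75% and 3.87% in homozygotes, so that the groups overlapped (log2 -0.01, SE 0.026, adjusted p = 0.784). With TMM it was called higher (0.12, adjusted p = 0.00838). With RLE it was called lower (-0.21, adjusted p = 0.0141), as it was with DESeq2 (-0.21, adjusted p = 0.00938). Cluster 7-qD2-24830.1 held 2.22% and 2.21% in wild type and 2.27% and 2.33% in homozygotes and did not pass (0.05, adjusted p = 0.0851). Clusters 6-qF3-28913.1 (0.17), 5-qG3-23659.1 (0.15) and 15-qD1-17920.1 (0.21) were called higher as shares and with TMM, but not with RLE, where they stood at -0.03, -0.05 and 0.01. Their share changes were close to the 0.17 of the median cluster.

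The largest falls were in pachytene clusters, several of them abundant. Cluster 15-qD3-14639.1 (chr15:74636387-74648452), an intergenic locus by its name that overlaps the RefSeq gene Mroh4, held 1.94% and 1.92% of the reads in wild type and 0.650% and 0.659% in homozygotes. The homozygous level was 2.95-fold lower, with a log2 change of -1.56 (SE 0.025) and the smallest adjusted p of the comparison, 3.59e-11. Per kilobase it went from 1601 to 542 reads per M cluster reads. Cluster 7-qD1-19431.1 (chr7:73105311-73126555), which overlaps no RefSeq gene, held 1.14% and 1.16% in wild type and 0.386% and 0.399% in homozygotes. It fell by 1.55 (SE 0.034, adjusted p = 3.21e-10). Cluster 15-qE1-8387.1 (chr15:78653228-78670532) held 0.658% and 0.661% in wild type and 0.254% and 0.260% in homozygotes, a fall by 1.36 (SE 0.048, adjusted p = 1.74e-08). In each of these loci the genotypes did not overlap, and the replicates of a genotype lay close together.

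Cluster 10-qA3-2592.1 (chr10:18796805-18831930), whose end coincides with the start of the lncRNA 4930444F02Rik printed above, held 0.642% and 0.673% in wild type and 0.181% and 0.188% in homozygotes. It fell by 1.83 (SE 0.084, adjusted p = 1.04e-07). The largest fall was in 14-qA3-284.1 (chr14:24425163-24429825), over the lncRNA Gm41109, which held 0.118% and 0.120% in wild type and 0.0339% and 0.0317% in homozygotes (log2 -1.86, SE 0.128, adjusted p = 1.34e-06). A genic pachytene cluster, pi-Cdc42ep3.1 (chr17:79334678-79354890), named for a gene of a CDC42 effector protein, held 0.0876% and 0.0923% in wild type and 0.0278% and 0.0277% in homozygotes (log2 -1.70, SE 0.134, adjusted p = 2.81e-06). In all 3 both wild-type libraries were at least 3-fold above both homozygous ones. The other clusters among the 8 largest falls were 4-qD2.2-349.1 (-1.34) and 13-qA5-967.1 (-0.85). These 8 clusters were called lower under all 3 scalings.

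**Figure D4:**
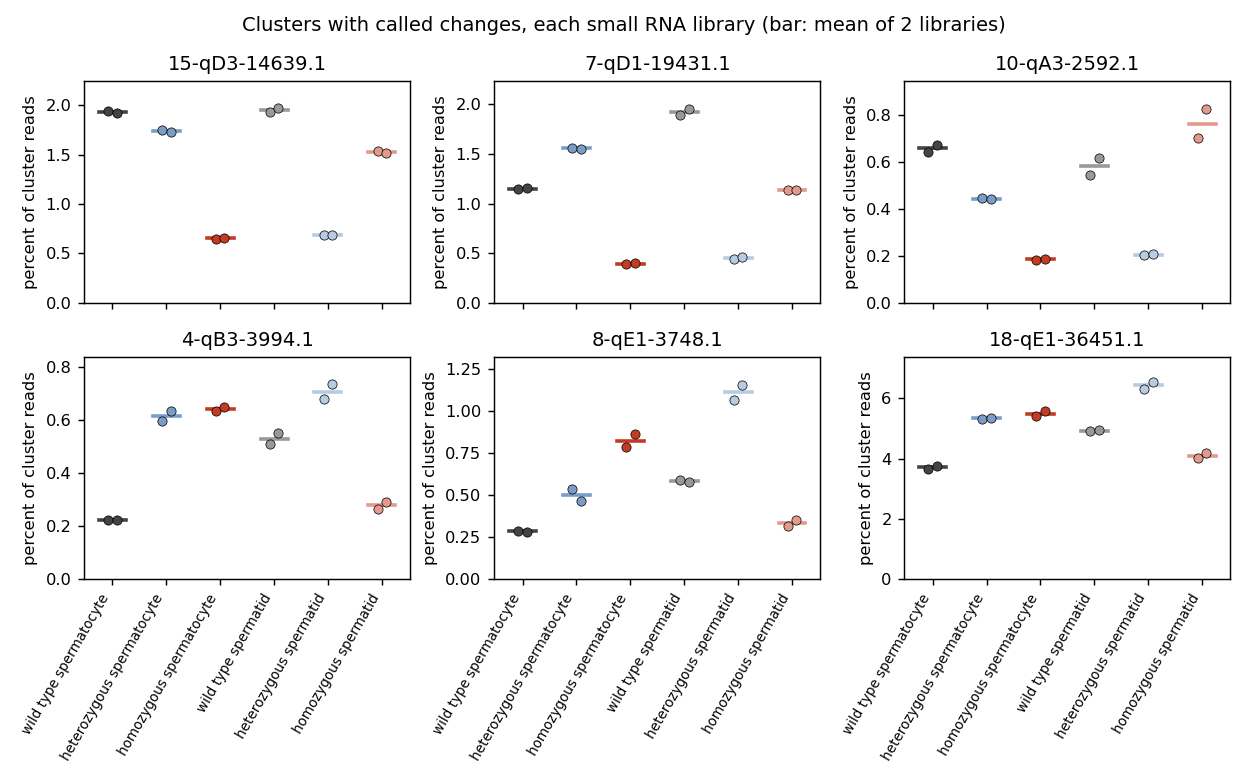
Percent of cluster reads of 6 pachytene clusters in each of the 12 small RNA libraries (points), with the mean of each group of 2 (bars) and axes that start at 0. Homozygous spermatocytes are lower than wild type in the upper row and higher in the lower row; in both rows heterozygous spermatids lie nearer to homozygous than to wild-type spermatocytes.

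The largest rises among well-covered pachytene clusters were of similar size. Cluster 4-qB3-3994.1 (chr4:57360190-57364266), at the lncRNA 1700042G15Rik whose promoter is printed above, held 0.222% and 0.221% of the reads in wild type and 0.635% and 0.649% in homozygotes. It rose by 1.54 (SE 0.066, adjusted p = 7.61e-08), 2.90-fold. Cluster 8-qE1-3748.1 (chr8:110117665-110132456), over the lncRNA Gm35543, held 0.285% and 0.280% in wild type and 0.783% and 0.865% in homozygotes, a rise by 1.54 (SE 0.081, adjusted p = 1.88e-07). A smaller rise was found in 6-qC3-6258.1 (chr6:81893817-81910494), which held 0.473% and 0.489% in wild type and 0.814% and 0.834% in homozygotes (log2 0.78, SE 0.045, adjusted p = 4.13e-07). In all 3 the homozygous libraries were above the wild-type libraries, and all 3 were called higher under each scaling.

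Among prepachytene clusters the largest changes rested on few reads. Of the 71 with a wild-type share of at least 0.01%, 10 were called higher and 61 were not called. The prepachytene cluster of most reads, pi-Phf20.1 (chr2:156196657-156309951), lies in the gene of a chromatin reader protein. It held 0.734% and 0.720% in wild type and 0.913% and 0.828% in homozygotes, higher in both homozygous libraries. Its rise of 0.26 (SE 0.095) only just passed (adjusted p = 0.0464) and was not called with RLE (0.06, adjusted p = 0.597) and not without wild-type library 1 (adjusted p = 0.128), wild-type library 2 (0.17) or homozygous library 1 (0.26). Of the 19 called prepachytene clusters, 9 had wild-type shares under 0.01%. Cluster pi-Hif1an.1, in the gene of an asparagine hydroxylase that inhibits the hypoxia factor HIF, had 434 and 489 reads in wild type and 1075 and 1338 in homozygotes. Its share rose by 1.49 (SE 0.176, adjusted p = 5.42e-05). Cluster pi-Rplp1.1, in a ribosomal stalk protein gene, had 150 and 233 reads in wild type and 601 and 527 in homozygotes (log2 1.65, adjusted p = 0.0078; not called without wild-type library 1, adjusted p = 0.0728). In both loci the homozygous libraries were well above the wild-type ones.

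The other large changes in this class rested on few reads as well. Cluster pi-Lsmd1.1, in a gene now named Naa38, which encodes an N-terminal acetyltransferase subunit, had 108 and 139 reads in wild type and 582 and 494 in homozygotes (log2 2.22, SE 0.710, adjusted p = 0.0256). Leaving out any of the 4 libraries ended the call, with adjusted p between 0.07 and 0.152. The main fit also takes in the homozygous spermatid libraries, where pi-Lsmd1.1 had 86 and 0 reads. With edgeR it was called in the 4 compared libraries alone (adjusted p = 2.2e-21) and in the 6 spermatocyte libraries (1.5e-09). DESeq2 did not call it (adjusted p = 0.0829). Cluster pi-Hist1h1a.1, in a linker histone gene, had 59 and 22 reads in wild type and 124 and 130 in homozygotes (log2 1.74, adjusted p = 0.00888), a call that DESeq2 did not make (adjusted p = 0.29). Leaving out wild-type library 1 moved its log2 change to 2.63, and leaving out the other wild-type library to 1.19. The locus of largest change, 1-qE2.3-2.1 (chr1:118459144-118459266), is 123 bases long and overlaps the protein-coding gene Clasp1 and the lncRNA 2900060B14Rik. It had 15 and 20 reads in wild type and 162 and 111 in homozygotes (log2 3.04, SE 0.370, adjusted p = 0.000127). The homozygous libraries were higher in each of these loci. Such low counts also carry amplification error, since the reads have no stated molecular identifiers.

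The hybrid clusters that passed the test as shares mostly rose, and 6 of the 12 higher ones were called higher under all 3 scalings. With RLE the tally of hybrid calls was 6 higher and 8 lower, as given above. Cluster pi-Exoc8.1 (chr8:124893111-124897776), which overlaps Exoc8, a gene of the exocyst complex, and Sprtn, held 0.00824% and 0.00837% in wild type and 0.0346% and 0.0342% in homozygotes. It rose 4.14-fold (log2 2.05, SE 0.104, adjusted p = 1.77e-07), the largest change of its class, with no overlap between the genotypes. The hybrid cluster of most reads, pi-Cbl.1 (chr9:44142978-44233502), lies in the gene of an E3 ubiquitin ligase and held 0.534% and 0.542% in wild type and 0.685% and 0.661% in homozygotes. It rose by 0.32 (SE 0.047, adjusted p = 0.000234) and was not called with RLE (0.12, adjusted p = 0.146). The 2 hybrid clusters that fell, singled out after their values were seen, were pi-Eif2c2.1, in the gene of the Argonaute protein AGO2 (-0.34, adjusted p = 0.00156), and pi-Mlc1.1 (-0.35, adjusted p = 0.0048), whose call was lost with TMM (adjusted p = 0.0547). With pi-Cdc42ep3.1 they were the only genic clusters of 114 called lower (2.63%), against 30 called higher (26.3%). Both shares were below those of all 214 clusters, 15.4% lower and 34.1% higher. With RLE 16 genic clusters were lower and 12 higher.

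Neighbouring clusters gave a comparison that no scaling can affect. The tables hold 15 pairs of pachytene clusters that lie 37 to 194 bases apart, a layout seen where transcription runs outwards from a shared promoter. The log2 ratio of reads between the members of a pair was taken in each library, the locus at the lower coordinate over the locus at the higher one, as a comparison chosen after the data were seen. The genotypes did not overlap in 14 of the 15 pairs (93.3%), beside 84.1% for the shares of all single clusters. The ratio moved by more than 0.5 in 7 pairs and by under 0.15 in 5. The median SD between the wild-type libraries was 0.019. By the calls of single clusters, 6 pairs had a member called higher and a member called lower, 3 had both lower, 1 had both higher, 4 had a call in 1 member and 1 had none. These calls, unlike the ratios, depend on the scaling. Members were called in opposite directions in 5 pairs with TMM and in 2 with RLE, and under all 3 scalings in the same 2, those of 7-qD1-19431.1 and 9-qC-31469.1.

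The largest change of balance was at 7-qD1-654.1 and 7-qD1-19431.1, which lie 37 bases apart. Their log2 ratio was -3.34 and -3.30 in wild-type libraries 1 and 2 and -0.94 and -1.03 in homozygous libraries 1 and 2, a shift of 2.33. The left cluster, 7-qD1-654.1 (chr7:73097825-73105273), rose from 0.113% and 0.118% to 0.201% and 0.196% (log2 0.78, adjusted p = 3.61e-06) while its partner fell as given above. At 5-qF-14508.1 and 5-qF-14224.1, 41 bases apart, the ratio went from -1.22 and -1.18 to -0.27 and -0.22. The right member of this pair was called lower under all 3 scalings, while the left one stood at 0.20 as a share (adjusted p = 0.00635) and was not called with RLE (adjusted p = 0.988). At 9-qC-31469.1 and 9-qC-10667.1 it went from 1.57 and 1.57 to 0.74 and 0.72, with the left cluster called lower and the right one higher (0.37, adjusted p = 2.81e-06). At 15-qD1-17920.1 and 15-qD1-4001.1 it went from 0.96 and 0.83 to 1.73 and 1.69, where the right cluster fell by 0.61 (adjusted p = 4.96e-05).

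In other pairs the ratio shifted less. The members of 17-qA3.3-27363.1 and 17-qA3.3-26735.1, whose gap holds bases of the Gm10505 promoter printed above, fell by 0.53 each. Their ratio was -0.52 and -0.49 in wild type and -0.50 and -0.53 in homozygotes, the single pair in which the genotypes overlapped. At 18-qE1-36451.1 and 18-qE1-1295.1 both members rose, by 0.57 and 0.71, and the ratio went from 3.98 and 4.01 to 3.86 and 3.85, a small shift without overlap. The partners of 7-qD2-24830.1 and 7-qD2-11976.1, neither of them called, had ratios of 0.96 and 0.94 in wild type and 1.05 and 1.06 in homozygotes, also without overlap.

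**Figure D5:**
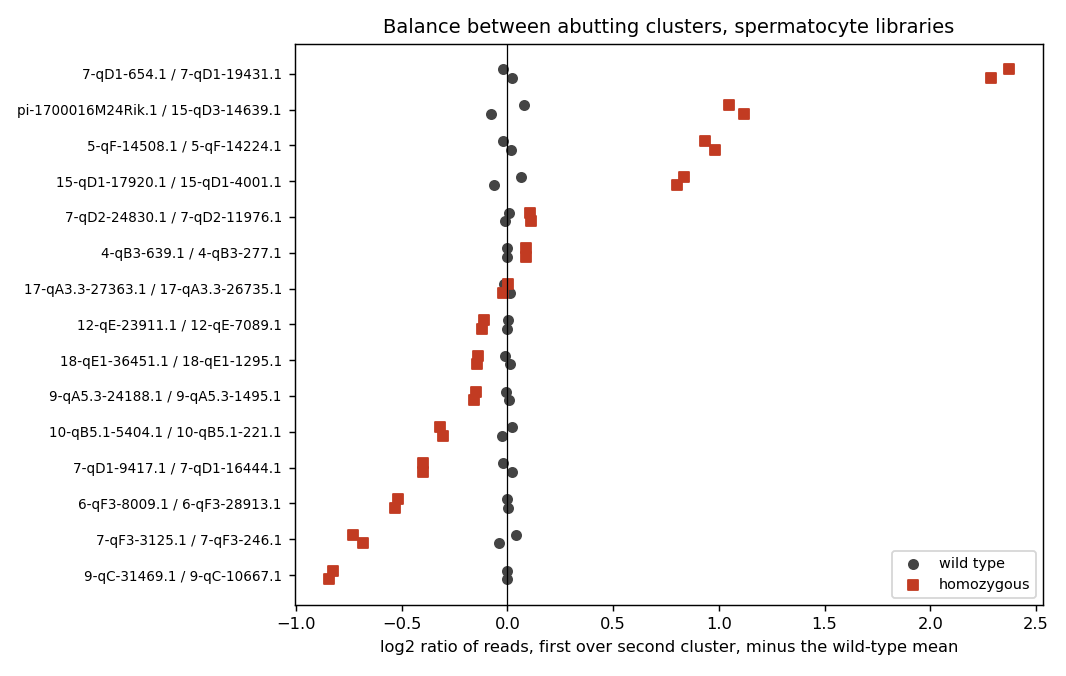
Log2 ratio of reads between the members of 15 abutting pairs of pachytene clusters in the 4 spermatocyte libraries, lower over higher coordinate, minus the mean of the wild-type libraries. Wild-type libraries (circles) lie close to 0 and homozygous libraries (squares) spread from below -0.8 to above 2.2, with both libraries of a genotype close together.

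Heterozygous spermatocytes were compared with the same wild-type libraries, so these comparisons share controls and only values are set side by side. In that comparison 163 clusters were called (76.2%). Of the 73 clusters called higher in homozygotes, both heterozygous libraries lay between the other genotypes in 27, on the far side of wild type in 29 and beyond homozygotes in 9, and overlapped a range in 8. Of the 33 called lower these counts were 12, 14, 2 and 5. Of the 108 not called, each taken by the sign of its own change, they were 5, 69, 26 and 8. A place between the genotypes needs a gap between them, which is small in many clusters not called (median log2 change 0.11). The counts of called and uncalled clusters are therefore not compared. Cluster 4-qB3-3994.1 stood near the homozygous level, at 0.597% and 0.634% in heterozygous libraries 1 and 2. Cluster 15-qD3-14639.1 stood nearer wild type, at 1.75% and 1.73%. Cluster 7-qD1-19431.1 lay above both genotypes, at 1.56% and 1.55%. The class shares lay on the other side of wild type, with 7.26% and 7.52% of heterozygous reads on prepachytene and 88.7% and 88.4% on pachytene clusters.

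In round spermatids 176 clusters differed between homozygotes and wild type (82.2%), and the genotype change itself differed between spermatids and spermatocytes in 173 clusters by the interaction term (80.8%). In 76 of these the changes had opposite signs. Directions here are those of shares, and the scaling can move them as it did in spermatocytes. The spermatid change minus the spermatocyte change of 15-qD3-14639.1 was 1.21 as a share, 0.62 with TMM and 1.05 with RLE. Of the 73 clusters higher in homozygous spermatocytes, 23 were called higher in homozygous spermatids too and 33 were called lower. Of the 33 lower clusters, 16 were lower there and 10 higher. The heterozygous spermatid libraries lay closer to homozygous than to wild-type spermatocytes in 51 of the 73 and 27 of the 33 clusters. Among the 108 clusters not called in spermatocytes this held for 34. Their median log2 change was 0.11, so which genotype is nearer says less there. The homozygous spermatid libraries lay closer to wild-type spermatocytes in 59 of the 73, 27 of the 33 and 58 of the 108. Wild-type spermatid libraries did so in 42 of the 73, 28 of the 33 and 77 of the 108. Cluster 15-qD3-14639.1 held 0.686% and 0.688% in heterozygous spermatids and 1.54% and 1.52% in homozygous spermatids, against 1.93% and 1.97% in wild-type spermatids. The ratio of the pair 7-qD1-654.1 and 7-qD1-19431.1 was -0.76 and -0.86 in heterozygous spermatids and -2.93 and -2.95 in homozygous ones, against -3.65 and -3.84 in wild-type spermatids.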

How the data were processed

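Small RNA libraries of enriched mouse pachytene spermatocytes and round spermatids were analysed, 2 for each of 3 genotypes. The authors deposited whole-number read counts per piRNA cluster, with class and mm10 coordinates in the cluster names, printed here as given. The submitters' processing notes name Trim Galore and mm10. Sources used here give neither the aligner nor how reads matching several clusters were counted. All values are relative to cluster reads, so a loss or gain common to all clusters cannot be seen. RNA-seq tables of the series were not used.

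Counts were fitted with edgeR 4.0.16 in R 4.3.3 (quasi-likelihood F test, all 12 libraries in 6 groups). The library size was the sum of cluster counts, without further factors, so a log2 change is a change of share. All 214 clusters passed filterByExpr, and p-values were adjusted by Benjamini-Hochberg over them with a threshold of 0.05. The SE is the size of the log2 change over the root of F. Alternatives were TMM and RLE factors, DESeq2 1.42.0, no filter, fits of 6 or 4 libraries, a replicate block and leaving out each library. Tested on simulated data for this comparison (214 clusters), 97% of 1.5-fold and 99% of 2-fold changes were recovered, with 3.10% false calls. The false calls are given as a share of the clusters left unchanged, not of all calls. The simulation gave every cluster the common dispersion of 0.0077 and changed only the homozygous spermatocyte group. Its recovery therefore does not hold for clusters of wider spread, such as pi-Lsmd1.1 (SE 0.710). Replicates differed by more than counting error (chi-square per degree of freedom 60.6 or more), so none was a copy.

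Members, lists and tests were chosen with earlier results of these data known. Clusters named are the 10 of most reads, the 8 called higher and 8 called lower of largest change whose libraries do not overlap, the leading clusters of each class and 5 of smallest interaction p. A rule for pairs by name endings picked none, and pairs under 1000 bases apart replaced it. Names starting with pi- were taken as genic, and their values are piRNA reads, not mRNA. Promoters and gene overlaps come from RefSeq (GRCm38.p6), where 81 of the 114 genic clusters matched by symbol.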

Additional observations from a re-analysis of the deposited data

Results flagged for a closer look

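The genotype change differed between round spermatids and spermatocytes in 173 of 214 clusters by edgeR's interaction test at an adjusted p under 0.05, higher in spermatids in 110 and lower in 63. This split is that of shares. With TMM 171 clusters were called and with RLE 175, and their directions were not counted. The values of the 5 clusters of smallest p follow, as the spermatid change minus the spermatocyte change on the log2 scale.

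For 5-qF-4633.1 (mm10 chr5:114834170-114853587, over the lncRNAs Gm46920 and Gm13821 and the microRNA gene Mir6240) the difference was 2.49 (SE 0.059, adjusted p = 1.23e-09). It took 6.49% and 5.94% of the reads in homozygous spermatids against 1.55% and 1.54% in wild-type spermatids, and 1.14% and 1.12% in homozygous spermatocytes against 1.57% and 1.58% in wild-type ones. Counts per cluster do not tell reads of Mir6240 from its other reads. For 15-qD3-14639.1 the difference was 1.21 (SE 0.035, adjusted p = 4.03e-09), a smaller fall in spermatids. For 4-qB3-3994.1 it was -2.47 (SE 0.093, adjusted p = 2.92e-08), with 0.264% and 0.291% in homozygous and 0.508% and 0.550% in wild-type spermatids, the reverse of the spermatocyte order. For 6-qC3-6258.1 it was -1.54 (adjusted p = 5.64e-08) and for 18-qE1-36451.1 it was -0.84 (adjusted p = 1.06e-07), also with opposite signs in the stages. The resemblance of spermatid libraries to spermatocyte libraries of another genotype label runs through these values, and its part in them was not tested.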

How the results depend on the processing

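Scaling and the choice of libraries in the fit moved the counts. With the 6 spermatocyte libraries 163 clusters were called, 119 of them higher, and with the 4 compared libraries 113 were higher. Higher calls numbered 118 with TMM, 35 with RLE and 34 with DESeq2, and lower calls 61 with RLE and 59 with DESeq2. Under all 3 scalings, counted after seeing the data, 60 clusters were higher and 44 lower with 6 libraries, and 70 and 43 with 4. Of the 106 calls, 101 were shared with TMM, 68 with RLE, 67 with DESeq2 and 105 with 4 libraries, none in the opposite direction. Depth limits the clusters under 0.01% of reads most, where wild-type libraries hold as few as 15 reads.

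Class medians as shares (0.20 prepachytene, 0.19 hybrid, 0.03 pachytene) became 0.33, 0.32 and 0.16 with TMM and -0.0028, -0.013 and -0.17 with both RLE and DESeq2. Leaving out each library gave 0.12 to 0.27, 0.12 to 0.24 and 0.024 to 0.047. The hybrid share difference was 1.15 percentage points with the cluster of most reads left out of the total. Sign changes of named clusters were 2-qE1-35981.1 at 0.12 with TMM and between -0.033 and 0.014 with a library left out, 6-qF3-28913.1 at -0.030, 5-qG3-23659.1 at -0.045 and 7-qD2-24830.1 at -0.14, the last 3 with RLE and with DESeq2.

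Leaving out a library, where the lone library is taken to vary like the other groups, gave 86 to 95 calls (55 to 63 higher, 30 to 32 lower; 25 to 29 and 25 to 31 under all 3 scalings) and 163 to 189 for the interaction. Replicate numbers did not pair the compared groups with each other (their replicate differences correlated at 0.05). Other pairs of groups of the fit ranged from -0.49 to 0.82. Homozygous spermatocytes reached 0.82 with heterozygous and 0.78 with wild-type spermatids, and these spermatid groups 0.77 with each other. What these groups share was not tested. With the replicate block 110 clusters were called, 76 higher and 34 lower.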

Other observations

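Chromosomes differed in the direction of their clusters, a pattern singled out after the values were seen and given without a test. On chromosome 13, 8 of 12 clusters were called higher and 1 lower in homozygous spermatocytes (6 and 1 under all 3 scalings), with a median log2 change of 0.48. On chromosome 15, 1 of 13 was called higher and 6 lower (0 and 5 under all 3 scalings), with a median of -0.34. Over all 214 clusters 34.1% were higher and 15.4% lower. Abutting clusters are not independent, and 4 of the 13 clusters on chromosome 15 lie in such pairs.

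Of the 100 clusters named by chromosome band, 84 overlap a RefSeq gene of some kind, 60 of them a long non-coding RNA and 22 a protein-coding gene. Clusters 1-qE2.3-2.1 and pi-Hist1h1a.1, both called higher in homozygous spermatocytes, are not listed in either homozygous spermatid library.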
